A study of Caenorhabditis elegans with 8 samples.

Results

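The 10 genes described here encode the core of insulin-like signalling in the nematode Caenorhabditis elegans, from the insulin receptor gene daf-2 to the transcription factor gene daf-16. They were taken as members of this pathway, matched by WormBase gene identifier, and make up 10 of the 46916 genes in the deposited table: daf-2, ist-1, age-1, aap-1, pdk-1, akt-1, akt-2, sgk-1, daf-18 and daf-16. All 10 passed the filter on low values, a mean of at least 10 normalised reads. RNA was sequenced from anti-FLAG immunoprecipitates (IP) of ADR-1, which binds double-stranded RNA, and from the lysates they were made from (input), an assay known as RIP-seq. The strain HAH26 (neural adr-1;adr-1(-);adr-2(-)) lacked adr-2, the gene of the only active adenosine-to-inosine RNA-editing enzyme of this animal, and is called adr-2(-) here. The strain HAH25 (neural adr-1;adr-1(-)) kept adr-2 and is called the control. Both had lost their own adr-1 through the allele tm668, HAH26 also carried the adr-2 allele ok735, and both expressed FLAG-tagged ADR-1 and GFP from the rab-3 promoter, which is active in neurons, on an extrachromosomal array that is not inherited by every animal. All animals were first-stage (L1) larvae that had hatched without food after bleaching and were crosslinked with UV light. With 2 biological replicates of each IP and each input, there were 8 libraries in 4 groups. The input held RNA of the whole larva, while ADR-1 was tagged in neurons only.

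In insulin-like signalling, a ligand activates the receptor tyrosine kinase DAF-2, which passes the signal to the phosphoinositide 3-kinase AGE-1 with its adaptor AAP-1, and IST-1 is the counterpart of the mammalian insulin receptor substrate proteins. The lipid that AGE-1 makes recruits the kinases PDK-1, AKT-1 and AKT-2, and the phosphatase DAF-18 removes it again. SGK-1 is a further kinase of the pathway. AKT-1 and AKT-2 phosphorylate the forkhead factor DAF-16 and keep it out of the nucleus. The pathway is known for its control of dauer formation, of the arrest of unfed L1 larvae and of lifespan.

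The values are normalised read counts, that is, reads per gene divided by the size factor of the library, and 1 normalised unit is not the same number of reads in each library. Recovered reads ranged from 2595323 to 2969937 in the inputs and from 20950841 to 79185018 in the IPs. One read was worth 6.40 and 8.91 units in the adr-2(-) inputs but 3.01 and 2.63 in the control inputs, and between 0.151 and 0.324 in the IPs. Counting error was therefore largest in the adr-2(-) inputs. Replicates correlated across genes at r = 0.872 in the adr-2(-) IPs, 0.900 in the adr-2(-) inputs, 0.814 in the control IPs and 0.962 in the control inputs. The IPs numbered 1 of the 2 strains correlated at r = 0.988, above the replicates of either strain. The row of adr-1 was at 0 in all 8 libraries, so the tagged gene gave no check of the labels, and adr-2 was not analysed here.

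The rows of daf-2 and daf-16, the first and the last gene of the pathway, stood apart from the other 8. In the control, both IPs were listed at 0 for each of them, and for each the authors' mean over the libraries differed from the mean of the 8 listed values. For daf-2 the authors' mean was 1203 and the listed values averaged 815. For daf-16 these were 796 and 541. In the other 8 genes the authors' mean and the mean of the listed values were equal within 0.1%. Of the 13276 genes with a mean of at least 10, 215 (1.62%) had such a mismatch, and among those without one 0 were at 0 in both control IPs. If the 6 other values entered the authors' mean as listed, 3110 units are left for the 2 control IPs of daf-2 together and 2038 for those of daf-16, an average of 1555 and 1019 units per library. At such a level the control IPs would have held at least 6432 reads of daf-2 and 4215 of daf-16. The zeros of these genes are therefore given as listed, and their cause was not tested. Fitted changes that involve them are set by the pseudocount and are not given as sizes, and their calls are counted but rest on the listed zeros. The 2 identical zeros also enter the spread that the fit estimates for these genes, and so their SEs in the other comparisons.

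**Figure D1:**
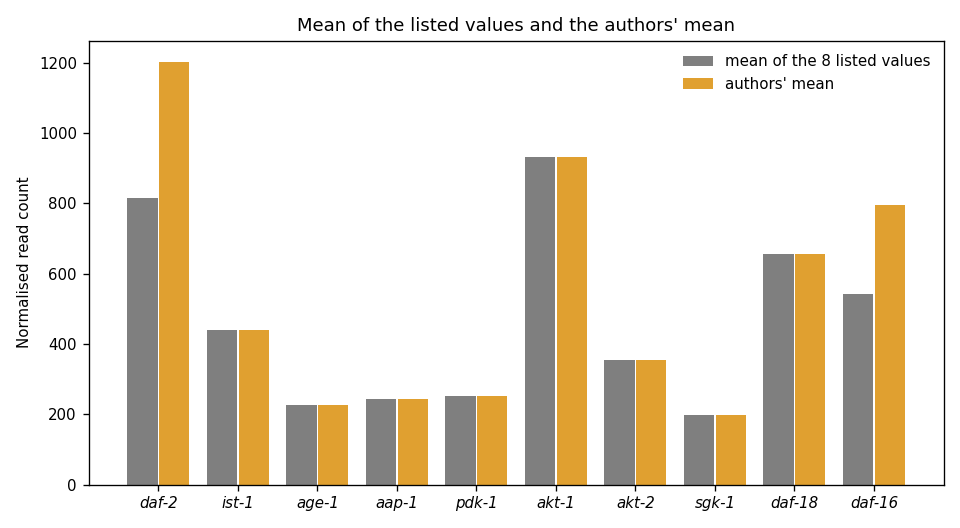
Mean of the 8 listed values (grey bars) and the authors' mean (orange bars) of each gene, in normalised read counts from 0. The bars of daf-2 (815 and 1203) and daf-16 (541 and 796) differ, and those of the other 8 genes are level.

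The genes lie on 6 chromosomes of the WBcel235 (ce11) assembly and all are protein coding. daf-2 (WBGene00000898) is at chromosome III, 2994514 to 3040846 on the minus strand, and is the longest with 8296 bp of summed exons. ist-1 (WBGene00002163) is at X, 7126648 to 7139666, plus strand. age-1 (WBGene00000090) is at II, 11519328 to 11527054, minus strand, and aap-1 (WBGene00000001) at I, 5107843 to 5110183, plus strand. The phosphatase gene daf-18 (WBGene00000913) is at IV, 420011 to 425177, minus strand. Of the kinase genes, pdk-1 (WBGene00003965) is at X, 1321344 to 1327986, plus strand, akt-1 (WBGene00000102) at V, 10248905 to 10252845, plus strand, akt-2 (WBGene00000103) at X, 14147700 to 14152070, plus strand, and sgk-1 (WBGene00004789) at X, 16254842 to 16262122, minus strand, the shortest with 1636 bp of exons. daf-16 (WBGene00000912) is at I, 10750498 to 10776703, plus strand. No exon of the 10 genes overlapped an exon of another gene on the same strand. Exons of 5 of them, age-1, aap-1, pdk-1, akt-1 and daf-16, overlapped a gene on the other strand, and the authors counted reads by strand. Reads were counted per gene, so the isoforms of daf-16 and of the other genes were not told apart.

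Levels were compared between genes per kb of exon. akt-1 had the highest level per kb in all 4 groups, at 522 units per kb in the adr-2(-) IPs, 194 in the adr-2(-) inputs, 411 in the control IPs and 510.2 in the control inputs. In the adr-2(-) IPs it was followed by daf-16 (305), daf-2 (239), akt-2 (238), ist-1 (180.5), daf-18 (152), pdk-1 (113), aap-1 (109), sgk-1 (95.8) and age-1 (60.4). Among these neighbours, daf-2 and akt-2, akt-2 and ist-1, ist-1 and daf-18, pdk-1 and aap-1, and aap-1 and sgk-1 overlapped between replicates, while the others did not. In the adr-2(-) inputs the order was akt-1, sgk-1 (182), aap-1 (158), ist-1 (75.3), daf-18 (49.2), akt-2 (39.1), daf-16 (25.6), pdk-1 (22.4), age-1 (21.9) and daf-2 (11.9). There akt-1 and sgk-1 overlapped, and so did each neighbouring pair from daf-18 to age-1. In the control IPs the order was akt-1, daf-18 (211), akt-2 (167), pdk-1 (119), ist-1 (105), aap-1 (102), sgk-1 (77.0) and age-1 (73.4), with daf-2 and daf-16 listed at 0, and every neighbouring pair from daf-18 to age-1 overlapped. In the control inputs it was akt-1, daf-18 (376), daf-16 (257), aap-1 (170.2), pdk-1 (160.2), akt-2 (152), daf-2 (142), sgk-1 (127), ist-1 (83.4) and age-1 (74.3), and the neighbours from aap-1 to sgk-1 overlapped. Thus daf-2 was the lowest of the 10 per kb in the adr-2(-) inputs and the third in the IPs of the same strain.

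**Figure D2:**
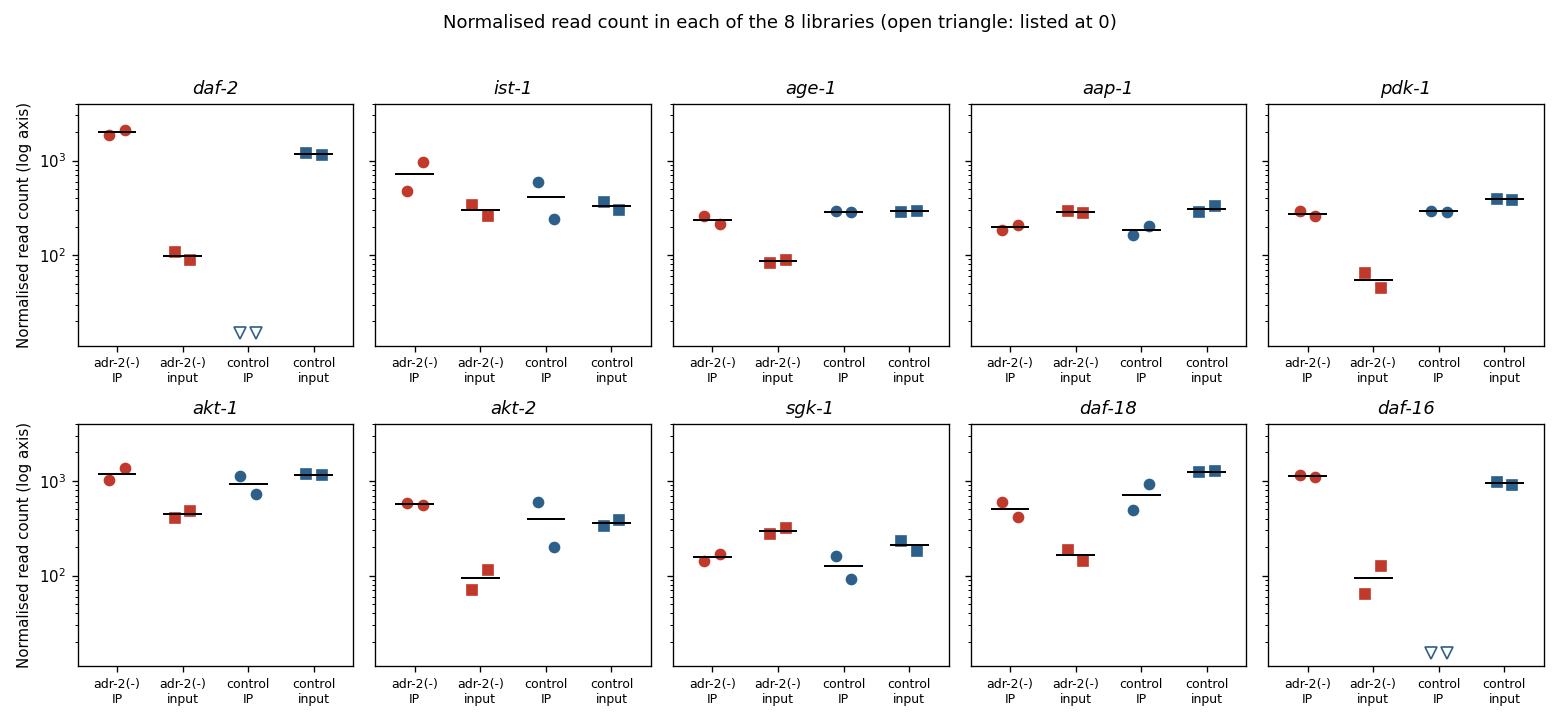
Normalised read count (log axis) of each of the 10 genes in the 8 libraries, with IPs as circles and inputs as squares, adr-2(-) in red and the control in blue; black lines are means of the 2 replicates and open triangles mark values listed at 0. In daf-2, age-1, pdk-1, akt-1, akt-2, daf-18 and daf-16 the adr-2(-) inputs lie below the control inputs, and daf-2 and daf-16 are at 0 in both control IPs.

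The inputs were compared to see how far the RNA in whole larvae differed between the strains. Of the 10 genes, 7 were lower in adr-2(-) at an adjusted p under 0.05 in limma and 0 at one under 0.001, and those 7 ran from the receptor to the transcription factor, while ist-1, aap-1 and sgk-1 were not. In whole-animal RNA, fewer cells of a type and less RNA per cell cannot be told apart. For the receptor gene daf-2, the inputs had 109 and 89.1 units in adr-2(-), from 17 and 10 reads, and 1212 and 1146 units in the control, from 403 and 435 reads. The adr-2(-) mean was 99.0 ± 14.001 (SD, n = 2), 11.9-fold lower than the 1179 ± 46.7 (SD, n = 2) of the control. The exact 95% Poisson intervals of the adr-2(-) inputs, 63.4 to 174 and 42.7 to 164 units, did not reach the lower bounds of the control inputs, 1097 and 1041 units. These intervals hold counting error alone. No removal of PCR copies is described, so copies may have counted as separate reads and the intervals may be too narrow.

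The PI3-kinase gene age-1 had 83.2 and 89.1 units in the adr-2(-) inputs against 289 and 295 in the control inputs, 3.39-fold lower in adr-2(-). Its replicates lay close together in both strains. For the phosphatase gene daf-18, which acts against age-1, the values were 186 and 143 units in adr-2(-) and 1239 and 1270.05 in the control, 7.65-fold lower in adr-2(-). Thus the genes of the kinase and of the opposing phosphatase were both lower. The kinase gene pdk-1 had 64.03 and 44.5 units in adr-2(-), from 10 and 5 reads, and 394 and 382 in the control, 7.15-fold lower in adr-2(-). akt-1 had 403 and 481 units in adr-2(-) and 1173 and 1151 in the control, 2.63-fold lower in adr-2(-), the smallest difference of the 7. akt-2 had 70.4 and 116 units in adr-2(-) and 334 and 389.97 in the control, 3.89-fold lower in adr-2(-), with its adr-2(-) replicates 11 and 13 reads deep. The transcription factor gene daf-16 had 64.03 and 125 units in adr-2(-), from 10 and 14 reads, and 975 and 917 in the control, 10.02-fold lower in adr-2(-).

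The remaining 3 genes had another pattern. ist-1 had 339 and 258 units in the adr-2(-) inputs against 361 and 300.4 in the control, and aap-1, the adaptor of AGE-1, had 295 and 276 in adr-2(-) and 283 and 332 in the control. In both genes the groups overlapped. The kinase gene sgk-1 was the only one of the 10 with a higher mean in adr-2(-). It had 275.35 and 321 units in adr-2(-) and 234.6 and 182 in the control. Its groups did not overlap, but the share of all genes without overlap in that direction was not counted.

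The test used for all comparisons was limma, fitted to log2(value + 1) of all 8 libraries across 13276 genes, with p-values adjusted over all of them. The log2 changes of the 7 genes were -3.57 for daf-2 (SE 0.38), -3.39 for daf-16 (SE 0.46), -2.94 for daf-18 (SE 0.40), -2.84 for pdk-1 (SE 0.36), -1.99 for akt-2 (SE 0.53), -1.75 for age-1 (SE 0.35) and -1.40 for akt-1 (SE 0.34). By the thresholds of the study, an adjusted p under 0.001 and a log2 change of at least 1 in size, 0 of the 10 genes and 0% of all genes were called lower by limma. The quasi-likelihood test of edgeR on the recovered reads called 0 of the 10 and 0 of 13276 of all genes lower. DESeq2 called 4 of the 10 and 265 of 27456 of all genes lower. At an unadjusted p under 0.05, limma had 7 of the 10 and 2440 of 13276 of all genes lower. At an adjusted p under 0.05, limma called 7 of the 10 lower, against 9.36% of all genes tested, with adjusted p-values from 0.00838 to 0.0415. Of the 1243 genes so called, 1088 had matching means, so most of the 215 mismatched genes were called, daf-2 and daf-16 among them. With the mismatched rows left out, limma called 5 of 8 lower at 0.05, and 1036 of 13061 of all genes. With both control IPs left out of the fit, a step added after the data were seen, the same 7 passed at 0.05 and 0 at 0.001. Over all genes, 2046 of 13276 were then called lower at 0.05. In that fit, daf-2 and daf-16 had adjusted p-values of 0.00262 and 0.00276 in limma. Values of the 2 strains did not overlap, with adr-2(-) lower, in the same 7 genes and in 37.1% of all genes. The change of ist-1 was -0.15 (SE 0.51, adjusted p 0.855 in limma), that of aap-1 -0.10 (SE 0.35, adjusted p 0.855) and that of sgk-1 0.52 (SE 0.41, adjusted p 0.405). Without any 1 of the inputs, fewer of the 10 passed at 0.05. Such a fit leaves 1 library in a group, and far fewer of all genes passed in it as well. The calls in the inputs thus hang on single libraries, over all genes and not in these 10 alone.

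The change in the inputs also moved with the length of a gene. Over 12717 protein-coding genes with matching means, the log2 change in the inputs fell with summed exon length. The Spearman rho was -0.486 across genes, which are not independent replicates. Genes of up to 500 bp had a median change of 1.50 and genes over 5000 bp one of -1.10. The 10 genes, between 1636 and 8296 bp long, had a rho of -0.624 between length and input change (n = 10, a description). Each gene was set against protein-coding genes with matching means and 0.8 to 1.2 times its own length. Against their median, daf-16 was lower by a log2 difference of -2.51, daf-2 of -2.33, pdk-1 of -2.30, daf-18 of -2.08, akt-2 of -1.47, akt-1 of -0.91 and age-1 of -0.84. None of the 95 genes of similar length had a change as low as that of daf-2, and 1.55% of the 1032 genes of similar length were at or below daf-16. Rows with mismatched means, as daf-2 and daf-16 have, were left out of these genes. The place of daf-2 and daf-16 among such rows was not examined by length. By the same measure, 21.6% of genes of similar length were at or below age-1 and 23.5% at or below akt-1. ist-1, sgk-1 and aap-1 were above the median of their length, by 0.77, 0.68 and 0.17. The trend with length was then removed from each library, a step added after the data were seen. limma called 4 of the 10 lower at an adjusted p under 0.05, and 596 of 13272 of all genes. In limma, the 4 were pdk-1 (-2.26, adjusted p 0.0228), daf-16 (-2.51, 0.0279), daf-18 (-2.11, 0.0362) and daf-2 (-2.38, 0.0398). age-1 (-0.85, adjusted p 0.189), akt-1 (-0.88, 0.138) and akt-2 (-1.42, 0.102) did not pass in that fit. The part of length in the differences between the strains was not tested further.

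**Figure D3:**
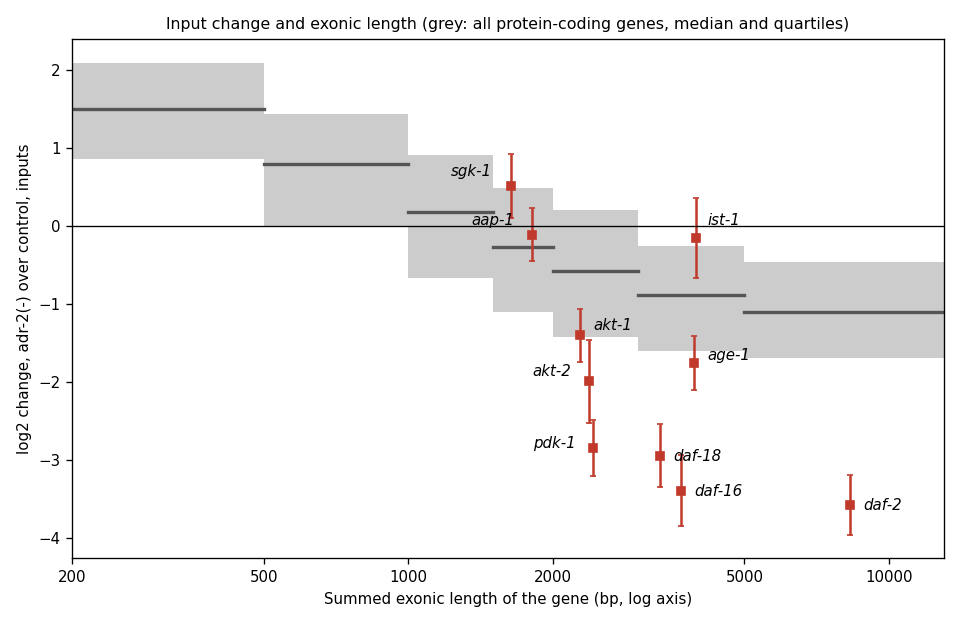
log2 change of adr-2(-) over control in the inputs (y axis) against summed exon length in bp (log x axis). Red squares are the 10 genes with their SE. Grey bands and lines are the quartiles and median of protein-coding genes with matching means in 7 length classes. The medians run from 1.50 in the shortest class to -1.10 in the longest. daf-2, daf-16, daf-18, pdk-1, akt-2 and age-1 lie below the band of their length, and ist-1 and sgk-1 lie above it.

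IP and input were compared within adr-2(-) to find which transcripts were over-represented in the ADR-1 IP of that strain. The same 7 genes were over-represented at an adjusted p under 0.05 in limma, with the highest ratios in daf-2 and daf-16. This comparison shares the adr-2(-) inputs with the one above. daf-2 had 1868 and 2094 units in the IPs against 109 and 89.1 in the inputs, a ratio of 20.0, and daf-16 had 1157 and 1092 units in the IPs against 64.03 and 125 in the inputs, a ratio of 11.9. Their IP replicates lie close together and far above the inputs. In the PI3-kinase step, age-1 had 262 and 213 units in the IPs and 83.2 and 89.1 in the inputs, a ratio of 2.76, and daf-18 had 595 and 417 units in the IPs and 186 and 143 in the inputs, a ratio of 3.08. Of the kinases, akt-2 had 581 and 555 units in the IPs and 70.4 and 116 in the inputs, a ratio of 6.10. pdk-1 had 289.8 and 258 units in the IPs and 64.03 and 44.5 in the inputs, a ratio of 5.05. akt-1 had 1019.5 and 1359.7 units in the IPs and 403 and 481 in the inputs, a ratio of 2.69. The groups did not overlap in any of these genes, but the share of all genes without overlap was not counted for this comparison.

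Neither aap-1 nor sgk-1 was over-represented. aap-1 had 186 and 207 units in the adr-2(-) IPs and 295 and 276 in the inputs, and sgk-1 had 143 and 171 units in the IPs and 275.35 and 321 in the inputs, so both lay below their inputs in every library. ist-1 had 474 and 957 units in the IPs and 339 and 258 in the inputs, with its IPs further apart than its inputs. In limma, daf-2 was called higher at an adjusted p under 0.001 (log2 change 4.31, SE 0.38, adjusted p 0.000744), 1 of the 10 genes against 0.226% of all genes tested. Of the 30 genes called, 3 had matching means. With both control IPs left out of the fit, daf-2 (SE 0.21, adjusted p 0.000471 in limma) and daf-16 (SE 0.33, adjusted p 0.000783) were called at 0.001. At 0.05, 8 of the 10 were called in that fit, the 8th being ist-1 (adjusted p 0.0446 in limma). Over all genes, 236 of 13276 were called higher in that fit at 0.001 and 2609 at 0.05. At an adjusted p under 0.05, 7 of the 10 were higher, against 14.3% of all genes: beside daf-2 these were daf-16 (3.64, SE 0.46), akt-2 (2.64, SE 0.53), pdk-1 (2.34, SE 0.36), daf-18 (1.61, SE 0.40), age-1 (1.44, SE 0.35) and akt-1 (1.42, SE 0.34), with adjusted p-values from 0.00212 to 0.0226. Of the 1898 genes called higher at 0.05, 1697 had matching means, so most of the 215 mismatched genes were called, daf-2 and daf-16 among them. With the mismatched rows left out, limma called 5 of 8 at 0.05, and 1654 of 13061 of all genes. The values of ist-1 (1.18, SE 0.51, adjusted p 0.126 in limma), aap-1 (-0.54, SE 0.35, adjusted p 0.281) and sgk-1 (-0.92, SE 0.41, adjusted p 0.135) did not pass. The call of daf-2 at 0.001 was lost without any 1 of the inputs or adr-2(-) IPs. Such a fit leaves 1 library in a group, and calls at both thresholds fell over all genes as well. Those losses are therefore not particular to daf-2 or to these 10 genes. Over all alternatives, the log2 change of daf-2 ranged from 2.41 to 5.48. With the length trend removed, daf-16 (2.40), daf-2 (2.41), pdk-1 (1.53) and akt-2 (1.85) passed at 0.05 and age-1 (0.15), akt-1 (0.67) and daf-18 (0.46) did not. In that fit, 936 of 13272 of all genes were called higher at 0.05.

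IP and input were compared in the control in the same way. Of the 8 genes with matching means, 0 were over- or under-represented in the control IPs at either threshold in limma, and 0 of the 8 had an unadjusted p under 0.05. edgeR and DESeq2 on the recovered reads also called 0 of the 8. Among genes with matching means, edgeR called 65 higher and 184 lower at 0.05, and DESeq2 648 and 536. akt-1 had 1140.15 and 731 units in the control IPs and 1173 and 1151 in the inputs, a ratio of 0.805. daf-18 had 488 and 919 units in the IPs and 1239 and 1270.05 in the inputs, a ratio of 0.561, and pdk-1 had 296 and 283 units in the IPs and 394 and 382 in the inputs, a ratio of 0.746. These 3 lay below their inputs in both control IPs and above them in both adr-2(-) IPs, but the share of all genes with this pattern was not counted. age-1 had 293 and 284 units in the IPs and 289 and 295 in the inputs, a ratio of 0.988, and its groups overlapped. ist-1 had 589.9 and 243 units in the IPs and 361 and 300.4 in the inputs, and akt-2 had 594 and 199.98 units in the IPs and 334 and 389.97 in the inputs. In both, 1 control IP lay above the inputs and 1 below them. aap-1 had 162 and 206 units in the IPs and 283 and 332 in the inputs, and sgk-1 had 160.05 and 92.0 units in the IPs and 234.6 and 182 in the inputs, so these 2 were below their inputs in both strains.

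The log2 changes of the 8 genes in the control lay between -0.90 (daf-18, SE 0.40, adjusted p 0.275 in limma) and 0.20 (ist-1, SE 0.51, adjusted p 0.867). daf-2 and daf-16 were listed at 0 in the IPs of the control against 1212 and 1146 units and 975 and 917 units in the control inputs. limma called both lower, as it did 1.31% of all genes at an adjusted p under 0.001 and 2.84% at one under 0.05. Of the 174 genes called lower at 0.001, 1 had a matching mean. With the average that the authors' mean leaves for the control IPs, the ratio of IP to input would be 1.32 for daf-2 and 1.08 for daf-16.

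**Figure D4:**
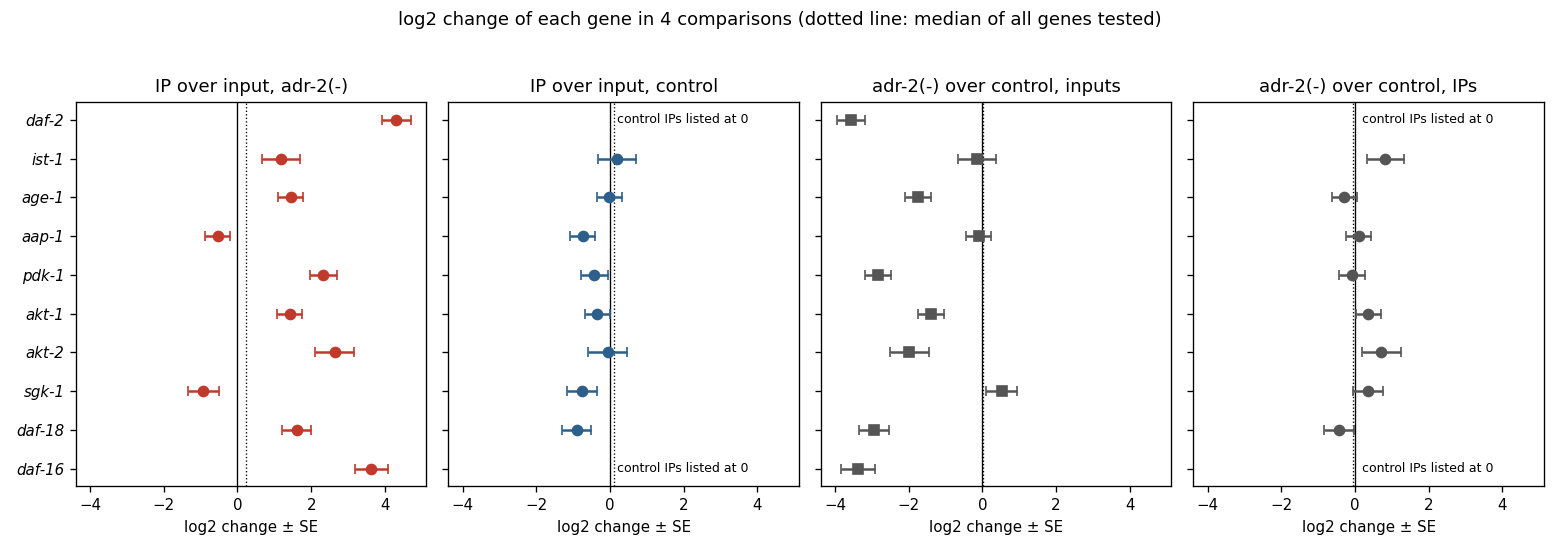
log2 change with its SE (x axis) of each gene in 4 comparisons: IP over input in adr-2(-), IP over input in the control, adr-2(-) over control in the inputs and adr-2(-) over control in the IPs; the dotted line is the median of all genes tested. In the first panel 7 genes lie between 1.42 and 4.31, in the third the same 7 lie between -3.57 and -1.40, and in the panels of the control and of the IPs the 8 genes drawn lie between -0.90 and 0.83.

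The IPs of the strains were then compared without regard to the inputs. The log2 changes of the 8 genes lay between -0.43 (daf-18, SE 0.40) and 0.83 (ist-1, SE 0.51), with adjusted p-values of 0.982 to 0.985 in limma, and 0 of the 8 had an unadjusted p under 0.05. Over all 13276 genes, 288 were higher and 12 lower at that unadjusted threshold. Thus pdk-1, at 289.8 and 258 units in the adr-2(-) IPs and 296 and 283 in the control IPs, had a change of -0.08 (SE 0.36), next to an input change of -2.84. In age-1 the adr-2(-) IPs had 262 and 213 units and the control IPs 293 and 284, a change of -0.29 (SE 0.35). In age-1, pdk-1, akt-1, akt-2 and daf-18 the strains thus differed in the inputs at 0.05, and no difference between the IPs was called. For daf-2 and daf-16, limma called a higher level in the adr-2(-) IPs, 2 of the 10 against 1.30% of all genes at an adjusted p under 0.001 and 1.53% at one under 0.05. Both calls rest on the zeros listed for the control IPs, and 0 of the 173 genes called at 0.001 and 0 of the 203 called at 0.05 had matching means. With the average that the authors' mean leaves for the control IPs, the log2 difference between the IPs would be 0.35 for daf-2 and 0.14 for daf-16.

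The size of the difference between the strains depended on which IPs were set side by side. Between the IPs numbered 1, the 8 genes differed by log2 values of -0.31 to 0.29. Between those numbered 2 they differed by -1.14 (daf-18) to 1.97 (ist-1). akt-1 (0.89), akt-2 (1.47) and sgk-1 (0.88) were also further apart there than between the IPs numbered 1, where they were at -0.16, -0.03 and -0.16. In the inputs, both numbers gave like values, from -2.73 to 0.23 for number 1 and from -3.15 to 0.82 for number 2. The samples with the same number are not known to share an animal or a day.

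**Figure D5:**
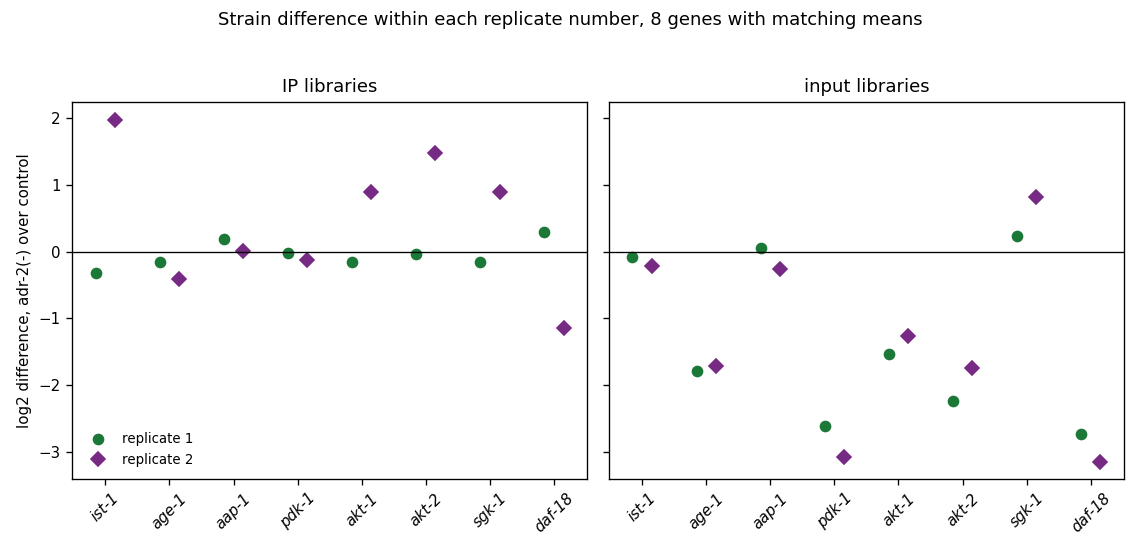
log2 difference of adr-2(-) over control (y axis) within replicate number 1 (green circles) and 2 (purple diamonds), for IPs (left) and inputs (right), in the 8 genes with matching means. The IPs numbered 1 differ by no more than 0.31 in size, while those numbered 2 spread from -1.14 to 1.97.

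The ratio of ratios, IP over input in adr-2(-) divided by IP over input in the control, is the question the study posed. limma called daf-2 and daf-16 higher at an adjusted p under 0.001, 2 of the 10 against 1.37% of all genes. Both calls rest on control IPs listed at 0, and 0 of the 182 genes called had matching means, so that the share of all genes is made up of such rows too. With the average that the authors' mean leaves for the control IPs, the log2 ratio of ratios would be 3.92 for daf-2 and 3.47 for daf-16, values that have no test. At an adjusted p under 0.05, 3 of the 10 were higher against 1.93% of all genes, the third being pdk-1 (2.76, SE 0.51, adjusted p 0.0312 in limma), and 54 of the 256 genes called had matching means. The values of akt-2 (2.704, SE 0.75, adjusted p 0.119), daf-18 (2.51, SE 0.57, adjusted p 0.0718), akt-1 (1.76, SE 0.48, adjusted p 0.117) and age-1 (1.46, SE 0.49, adjusted p 0.172) did not pass. DESeq2 on the recovered reads called 4 of the 10 at 0.05, and 390 of 27456 of all genes higher. Among the 4 in DESeq2 were daf-18 (2.48, adjusted p 0.0224) and pdk-1 (2.76, adjusted p 0.00737). ist-1 was at 0.98 (SE 0.73), aap-1 at 0.21 (SE 0.49) and sgk-1 at -0.16 (SE 0.58), against a median of 0.02 over all genes. Without the rows with mismatched means, 0 of the 8 remaining genes passed at 0.05, pdk-1 included, although its values were the same. pdk-1 also missed the threshold with the length trend removed (2.25, adjusted p 0.0895). Without any 1 of the adr-2(-) IPs, adr-2(-) inputs or control inputs, the call of pdk-1 was lost. With each of the 8 libraries left out in turn, its log2 ratio of ratios was 2.50 to 3.01. Such fits leave 1 library in a group, and the number of calls over all genes changed in them too.

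Genes that act around the pathway were examined as lists. Of 13 upstream regulators and other kinases linked to it, 11 passed the filter. In the inputs, 3 of the 11 were lower in adr-2(-) and 0 higher at an adjusted p under 0.05 in limma, against 9.36% and 5.03% of all genes, with a list median of -1.33 against 0.01 over all genes: gsk-3, a kinase (-2.63), pptr-1, a phosphatase subunit that acts on AKT-1 (-2.11), and shc-1, an adaptor (-1.47). In adr-2(-), 6 of the 11 were higher in the IP than in the input and 1 lower, against 14.3% and 10.4% of all genes. Among these were gsk-3 (2.83), pptr-1 (2.67) and daf-15, a partner of TOR (1.32), all higher, and asna-1 (-1.32), an ATPase involved in insulin secretion, which was lower. In the control and between the IPs, 0 of the 11 passed. Of all 13276 genes, 71 were higher and 377 lower in the control at 0.05, and 203 higher and 0 lower between the IPs.

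Of 14 regulators and cofactors of DAF-16, all passed the filter. In the inputs, 7 were lower in adr-2(-) and 1 higher at 0.05, against 9.36% and 5.03% of all genes, with a median of -0.88. The lower ones included skn-1, a stress-response transcription factor gene (-2.94), imb-2, an importin gene (-2.45), hsf-1, the heat shock factor gene (-1.94), and math-33, a deubiquitinase gene (-1.69). In adr-2(-) IPs against inputs, 5 were higher and 2 lower, against 14.3% and 10.4% of all genes, with skn-1 at 3.62, imb-2 at 2.13 and hsf-1 at 1.76 higher, and par-5, a 14-3-3 protein gene, lower at -1.57. skn-1 was the only one of these 14 to pass in the ratio of ratios at 0.05 (3.39, adjusted p 0.0245 in limma).

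Of 11 known targets of DAF-16, most of them genes of enzymes and stress proteins, 8 passed the filter. In the inputs, ctl-2, a catalase gene, was higher in adr-2(-) (1.87) and hsp-12.6, a small heat shock protein gene, was lower (-4.66), 1 gene each way against 5.03% and 9.36% of all genes, and the list median was 1.04. In adr-2(-) IPs against inputs, 5 were lower and 1 higher, against 10.4% and 14.3% of all genes, with sod-3, a superoxide dismutase gene, at -3.54, mtl-1, a metallothionein gene, at -3.45, dod-3 at -2.59 and ctl-2 at -2.37. In the control and between the IPs, 0 of the 8 passed at 0.05. Counts at an adjusted p under 0.001 in limma were 0 for all 3 lists in all 5 comparisons. The 3 lists and the markers below were not set against genes of similar length. Over protein-coding genes with matching means, changes moved with exon length, at a rho of -0.486 in the inputs and 0.512 in adr-2(-) IPs against inputs. The part of length in the list and marker results was not tested.

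Markers of cell types were set beside these results. In adr-2(-), 5 of 10 neuron markers were higher in the IP than in the input at an adjusted p under 0.05 in limma, and 0 were lower, against 14.3% and 10.4% of all genes, with a median of 2.06. Their summed level was 12834 to 17207 units in the adr-2(-) IPs, 8593 to 8995 in the adr-2(-) inputs, 6298 to 15440 in the control IPs and 6572 to 6672 in the control inputs. In the control, 0 of the 10 passed, with a median of 0.94, and 0 of the 10 passed between the inputs. Markers of body wall muscle, where the tagged protein is not driven, were also higher in the adr-2(-) IP in 3 of 6 genes (median 1.83), as were 2 of 3 markers of pharyngeal muscle (median 2.37) and 2 of the 4 epidermis markers that passed the filter (median 1.69). One of the muscle genes, unc-54, also gave its UTR to the transgenes, and reads from these were not told apart from its own. Of 6 intestine markers, 4 were lower in the adr-2(-) IP, against 10.4% of all genes. In the control IP, 2 of the 6 were lower at 0.05 in limma, against 2.84% of all genes, with a median of -1.14. Their summed level was 17919 to 28228 units in the adr-2(-) IPs, 183150 to 203723 in the adr-2(-) inputs, 9164 to 19671 in the control IPs and 69367 to 80003 in the control inputs. Of 5 germ line markers, 3 were lower in the adr-2(-) inputs, against 9.36% of all genes, where their sum was 531 to 784 units in adr-2(-) and 1693 to 1694 in the control. None of the neuron, muscle, intestine or germ line markers was at 0 in both libraries of a group. The part of these cell types in the changes of the pathway genes was not tested.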

How the data were processed

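The 10 genes and all lists were chosen with earlier results of these data known. Per the labels and methods, the authors selected polyadenylated RNA, made stranded 100-nucleotide single-end libraries, aligned reads to ce11 with WormBase WS275 genes in STAR, and counted single-location reads by strand with featureCounts. The submitters' processing notes name STAR 2.7.8a. The deposited signal per gene is the count divided by a DESeq2 size factor, per the file headers with the authors' mean. The deposited log2 ratio, score and p-value columns hold the authors' own comparison and were not used.

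The table held 46917 gene rows and 1 repeated header line, and 1 identifier was in 2 rows. Gene names, exons and positions came from Ensembl release 115. Whole reads were recovered from the values (100% whole in rows with matching means, 96.3% or more in the others). limma 3.58.1 in R 4.3.3 (trend) was run on log2(value + 1), 4 group means, no block, with Benjamini-Hochberg adjustment. A change on this scale understates that of low genes. Alternatives were pseudocounts, filters, scalings, each library left out, mismatched rows left out, a replicate block, edgeR 4.0.16 and DESeq2 1.42.0. Length correction (lowess), 2 further edgeR fits and a limma fit without the control IPs were added after the data were seen. List genes were named when they passed an adjusted p of 0.05 with a log2 change of at least 1, up to 4 per list and comparison by lowest p. The fit was also run on simulated counts with the same spread in every library and no trend with length. Those settings differ from these data, so that run is no support for the calls. Plots used Python 3.11.15 and matplotlib 3.10.9. No sequence is shown.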

Additional observations from a re-analysis of the deposited data

Results flagged for a closer look

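Of the 10 genes, 5 were noted because both adr-2(-) IPs lay above their inputs while both control IPs lay below theirs. The share of all genes with this pattern was not counted, and daf-2 and daf-16 meet it through control IPs listed at 0. They were picked on the same 8 values that the ratio of ratios uses, so its p-values, from the limma fit across all genes, are no independent support. pdk-1 had a log2 ratio of ratios of 2.76 (adjusted p 0.0312), daf-18 one of 2.51 (adjusted p 0.0718) and akt-1 one of 1.76 (adjusted p 0.117). In these 3, no difference between IP and input was called within the control in limma at 0.05. For daf-2 (14.52) and daf-16 (13.52) the fitted values are set by the pseudocount, since the control IPs are listed at 0. With the average that the authors' mean leaves for the control IPs, these would lie above the inputs, at ratios of 1.32 and 1.08.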

How the results depend on the processing

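The counts of the 10 genes called depended on the processing, and so did those of all genes. A fit with a library left out has 1 library in that group, so its counts are not read for the 10 genes alone. In adr-2(-) IPs against inputs, 1 was called at an adjusted p under 0.001 in limma and 7 at one under 0.05. The count at 0.001 was 4 with libraries scaled to the same total (with or without the 10 most abundant genes) and in DESeq2. All genes called higher then numbered 951 of 13508, 597 of 13384 and 571 of 27456. The count of the 10 at 0.001 was 2 with a pseudocount of 10 or with both control IPs left out. It was 0 with a pseudocount of 0.1, without a filter, with the length trend removed, and with the mismatched rows left out in limma or edgeR. With each library left out in turn it was 0 to 2. The count at 0.05 was 4 with the length trend removed and 3 to 8 with a library left out. In the control, 2 were called at both thresholds and 0 with the mismatched rows left out in limma or edgeR, since the 2 are daf-2 and daf-16, whose rows are among them. With a library left out, 2 to 2 were called at 0.001 and 2 to 3 at 0.05. In the inputs, 0 were called at 0.001 but 4 with libraries scaled to the same total and in DESeq2. All genes called lower then numbered 619 of 13508 and 265 of 27456. At 0.05, 7 were called, against 3 in edgeR with the mismatched rows left out, 4 with the length trend removed and 0 to 7 with a library left out. Between the IPs, 2 were called at both thresholds, 0 with the mismatched rows left out in limma or edgeR, and 2 to 2 with a library left out. In the ratio of ratios, 2 were called at 0.001 and 3 at 0.05, 0 and 0 with the mismatched rows left out in limma or edgeR, and 7 at 0.05 with libraries scaled to the same total, with or without the 10 most abundant genes, where 1778 of 13508 and 971 of 13384 of all genes were called higher, against 256 of 13276. With a library left out, 2 to 2 were called at 0.001 and 2 to 6 at 0.05, where 6 were called without control IP replicate 1, along with 1043 of all genes. DESeq2 called 4 there at 0.05, along with 390 of 27456 of all genes higher.

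Some log2 changes reversed, and none of these was called in the limma fit of all 8 libraries. One of them, ist-1 in adr-2(-) IPs against inputs (1.18 in that fit), was called at 0.05 in other fits. With the same total it was at 2.36 (adjusted p 0.00952 in limma). In adr-2(-) IPs against inputs, ist-1 was at -0.12 with the length trend removed, and with the same total aap-1 was at 0.64 and sgk-1 at 0.25, or 0.41 and 0.019 without the 10 most abundant genes. In control IPs against inputs, ist-1 was at -0.048 with the same total and -0.26 with the length trend removed. age-1 was there at 0.027 with TMM, 0.12 with the same total without the 10 most abundant genes, 0.0076 in edgeR, 0.0070 in edgeR without the mismatched rows and 0.0075 in edgeR with a block. akt-2 was there at 0.068 with the same total without the 10 most abundant genes, 0.13 in edgeR, 0.13 in DESeq2, 0.13 in edgeR without the mismatched rows and 0.065 in edgeR with a block. In the inputs, ist-1 was at 0.75 and aap-1 at 0.19 with the length trend removed, and sgk-1 at -0.77 with the same total or -0.40 without the 10 most abundant genes. Between the IPs, aap-1 was at -0.011 with the same total without the 10 most abundant genes and pdk-1 at 0.053 with the same total. In the ratio of ratios, aap-1 was at -0.077 with the length trend removed and sgk-1 at 1.261 with the same total, or 0.65 without the 10 most abundant genes. With each library left out in turn, control IPs against inputs ranged from -0.44 to 0.84 for ist-1, -0.0401 to 0.0042 for age-1 and -0.85 to 0.72 for akt-2. The inputs ranged from -0.35 to 0.043 for ist-1 and -0.22 to 0.012 for aap-1. The IPs ranged from -0.066 to 0.27 for aap-1, -0.16 to 0.0028 for pdk-1, -0.065 to 1.50 for akt-2, -0.036 to 0.76 for sgk-1 and -0.88 to 0.030 for daf-18, and the ratio of ratios of sgk-1 from -0.56 to 0.23. Over all alternatives, 1032 values of the 10 genes kept their direction and side of 0.001, 20 came to pass, 9 no longer passed and 39 changed sign. For the threshold of 0.05 these were 975 values kept, 19 that came to pass, 67 that no longer passed and the same 39. Except where the alternative leaves out the genes or samples concerned, the cause was not tested.

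Scaling to the same total moved the median of all genes from 0.23 to 1.42 in adr-2(-) IPs against inputs, from 0.01 to -1.261 in the inputs and from 0.02 to 1.43 in the ratio of ratios. Samples with the same replicate number are not known to be paired, and their deviations from the group means correlated at 0.457 between the IPs of the strains and at -0.01 to 0.04 in the other 5 pairs of groups. With the replicate number as a block, limma called 1 and 7 of the 10 in adr-2(-) IPs against inputs at 0.001 and 0.05, 2 and 2 in the control, 0 and 7 in the inputs, 2 and 2 between the IPs and 2 and 3 in the ratio of ratios, as without it. With that block, edgeR called 5 in the inputs at 0.05, against 6 without it, and 2 in the ratio of ratios, against 3 without it. Depth limited the adr-2(-) inputs most, where a gene with 0 reads could hold up to 3 reads, or 19.2 and 26.7 units.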
